A study of Mus musculus with 24 samples.

Results

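The rod phototransduction cascade was followed through 9 genes in the retina of the C57Bl/6 mouse: Gnat1, Gngt1, Gnb1, Pde6a, Pde6b, Pde6g, Cnga1, Sag and Grk1. Members were all probe sets whose platform symbol was 1 of these names, which gave 15 of the 22690 probe sets on the array. A probe set is a group of short oligonucleotides that report 1 transcript. The 24 arrays form 8 groups of 3: pups kept in room air (normoxia in the labels) and sampled at postnatal day 7, 8, 10 or 12, and pups of the same ages after 12, 24, 72 or 120 hours of hyperoxia. All animals are C57Bl/6, total RNA came from retina, and no group carries a transgene, a deletion or a drug. Hours of hyperoxia grow with age, so duration and age cannot be told apart, and the labels state neither the oxygen level nor how many pups went into an array. Of the 15 probe sets, 13 were bright enough to be tested, and they cover all 9 genes. The dim probe sets were 1425168_at of Gngt1 and 1425908_at of Gnb1.

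Rods turn light into an electrical signal by lowering cyclic GMP. Light changes the visual pigment, which activates transducin, a G protein made of the alpha subunit Gnat1, the beta subunit Gnb1 and the gamma subunit Gngt1. Active Gnat1 draws the inhibitory subunits Pde6g away from the catalytic subunits Pde6a and Pde6b of the phosphodiesterase, cyclic GMP is broken down, and channels that contain Cnga1 close. Grk1, a G protein-coupled receptor kinase, then phosphorylates the pigment, and Sag, the rod arrestin, binds it and ends the signal. In the mouse, rods are born around birth and build their outer segments, the organelles that hold this cascade, during the postnatal days covered here. Gnb1 is the member that many other cells also use.

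The stretches before the start sites of 5 members are shown to set rod genes with different roles in the cascade beside Gnb1, the widely used subunit, whose stretch is of a different make-up. They were read from RefSeq promoter windows of build GRCm38.p6, which hold 250 bases before and 50 after a start site, and the 250 bases before it are printed 5′ to 3′ on the gene's strand. Windows were at hand for 6 of the 9 members. Capitals mark matches on either strand to TAATCC, the core bound by the photoreceptor homeodomain factors CRX and OTX2 (GGATTA on the other strand), and to TGCTGA, a core of sites for NRL and other MAF factors (TCAGCA on the other strand). The stretches are those of Sag at chr1:87803430-87803679 (plus strand), Cnga1 at chr5:72642753-72643002 (minus strand), Gngt1 at chr6:3993758-3994007 (plus strand), Pde6b at chr5:108388123-108388372 (plus strand) and Gnb1 at chr4:155491111-155491360 (plus strand). Those of Gngt1 and Sag lie within the annotated span of the gene, before an internal start site. The end of the Gnb1 stretch also lies within the annotated span, which begins at base 155491300.
Sag: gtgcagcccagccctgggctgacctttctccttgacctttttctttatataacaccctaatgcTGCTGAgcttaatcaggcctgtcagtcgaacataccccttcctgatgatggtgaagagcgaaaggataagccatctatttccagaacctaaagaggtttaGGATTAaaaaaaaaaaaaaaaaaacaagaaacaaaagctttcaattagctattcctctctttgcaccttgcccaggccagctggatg
Cnga1: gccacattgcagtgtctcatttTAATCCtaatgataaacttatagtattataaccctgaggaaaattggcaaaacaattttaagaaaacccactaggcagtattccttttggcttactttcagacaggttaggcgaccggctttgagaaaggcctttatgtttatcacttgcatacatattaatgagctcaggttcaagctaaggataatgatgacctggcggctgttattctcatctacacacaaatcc
Gngt1: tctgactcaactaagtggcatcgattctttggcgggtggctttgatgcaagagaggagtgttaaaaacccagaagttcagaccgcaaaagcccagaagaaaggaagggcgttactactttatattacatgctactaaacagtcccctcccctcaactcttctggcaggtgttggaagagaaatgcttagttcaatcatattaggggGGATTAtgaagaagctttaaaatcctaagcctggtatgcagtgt
Pde6b: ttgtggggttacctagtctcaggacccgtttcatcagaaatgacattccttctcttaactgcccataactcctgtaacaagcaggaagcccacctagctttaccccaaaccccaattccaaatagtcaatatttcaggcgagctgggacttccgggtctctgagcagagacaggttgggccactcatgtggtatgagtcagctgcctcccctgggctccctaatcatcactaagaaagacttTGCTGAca
Gnb1: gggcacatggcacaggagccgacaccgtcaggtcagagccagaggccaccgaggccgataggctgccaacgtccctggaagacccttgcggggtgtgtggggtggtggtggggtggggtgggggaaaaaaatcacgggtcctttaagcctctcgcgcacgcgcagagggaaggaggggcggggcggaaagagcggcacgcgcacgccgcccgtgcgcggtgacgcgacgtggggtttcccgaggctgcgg

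TAATCC or its complement was in 7.06% of the 32851 windows of this length and TGCTGA in 19.5%, with both in 1.36%. Sag held both, TGCTGA at bases -187 to -182 and the complement of TAATCC at -87 to -82, counted from the start site. Cnga1 held TAATCC at -228 to -223 and Gngt1 its complement at -44 to -39. Pde6b held TGCTGA at -8 to -3, and Grk1 its complement after the start, at bases 30 to 35. The Gnb1 window held neither motif, and 70.3% of its bases were G or C, against 41.3% in Cnga1, 43.7% in Gngt1, 44.7% in Sag, 51.3% in Pde6b and 55% in Grk1. No match overlapped another. A match describes the letters alone.

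All values are log2 of the deposited intensity after quantile normalization, which gives the arrays the same distribution, and a difference of 1 is a doubling. Transcripts of photoreceptor factors were bright on every array. Nrl, the factor that sets rod fate, read 14.68 to 14.93 over the 24 arrays, and Crx, a factor of photoreceptors in general, 13.64 to 14.24. Arrays of a group correlated at 0.946 to 0.985, and none was a copy of another. Lens RNA was uneven. The mean of 12 measured lens markers of 16 ranged from 7.23 to 14.03. It was 7.47 to 8.74 on the hyperoxia arrays of day 8 and spread more widely in every other group. The mean of 10 measured pigment epithelium markers of 12 ranged from 8.99 to 11.27, with the lowest group mean of each condition at day 7 (9.86 in room air and 9.39 in hyperoxia). Nothing says that replicates came from separate animals, so p-values measure the spread between these arrays. Because this is whole tissue, more rods and more RNA per rod cannot be told apart.

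Between day 7 and day 12 Gnat1, Pde6a, Cnga1, Gngt1 and the bright probe set of Gnb1 rose in both conditions, Grk1 in hyperoxia alone by the test, and Sag and 1 probe set of Pde6g in room air alone, while Pde6b passed in neither. The change from day 7 to day 12 was itself compared between conditions. That test called 0 of 13 member probe sets and 0% of all probe sets, so it cannot decide whether these genes differ. In room air 9 of the 13 tested probe sets, of 7 genes, were higher at day 12 at a limma adjusted p under 0.05, against 7.14% of the 15838 probe sets tested. Their median difference was 0.66, beside -0.03 for all probe sets, and none was called lower, beside 824 of all. In hyperoxia 8 of 13, of 6 genes, were higher, against 5.95% of all, with a median of 0.67 beside -0.03. There 0 were called lower, beside 1051 of all. At an unadjusted p under 0.05, 12 of 13 passed in each condition, beside 4085 of all 15838 in room air and 4051 in hyperoxia. The exception was a second probe set of Gnb1, described further on. With those lens and pigment means added to the fit the counts were 6 in room air and 5 in hyperoxia.

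**Figure D1:**
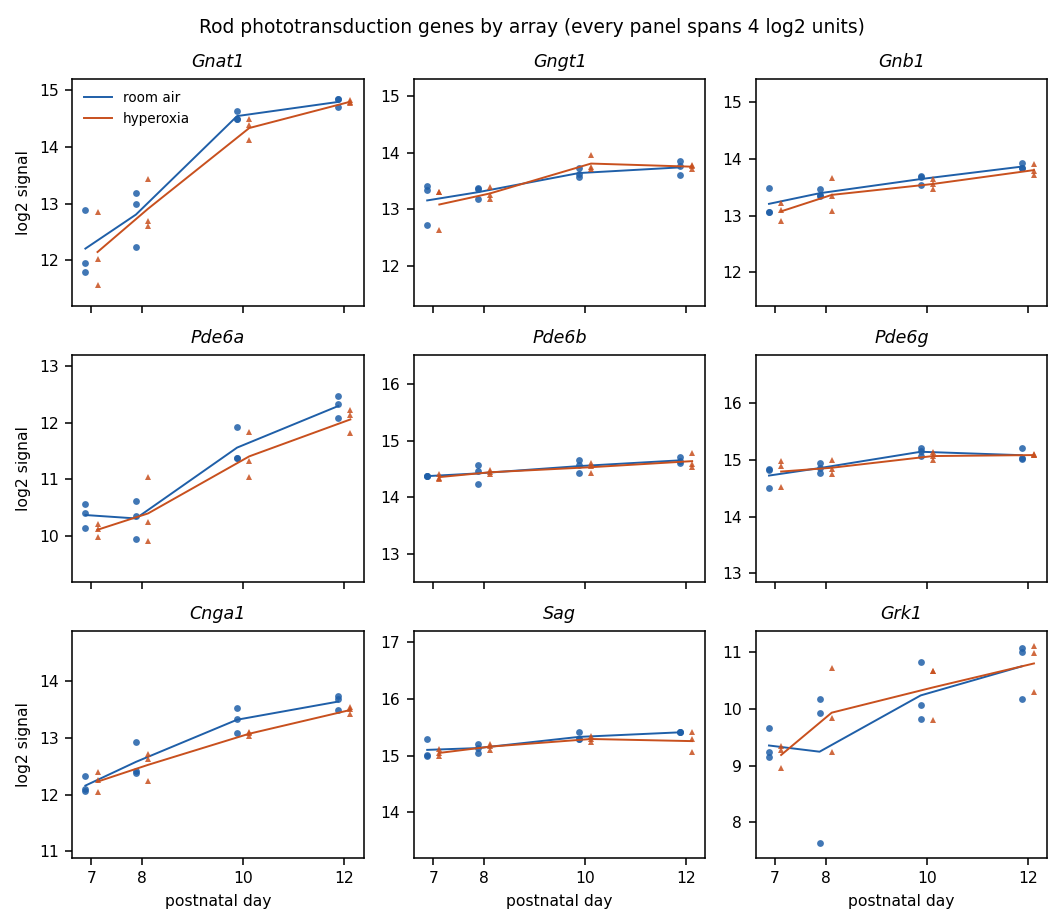
Log2 signal of the 9 genes on each of the 24 arrays against postnatal day, with 1 probe set per gene, the brightest. Circles are room air, triangles are hyperoxia, lines join the group means, and every panel spans 4 log2 units. Gnat1, Pde6a, Cnga1 and Grk1 climb, while Pde6b, Pde6g and Sag stay nearly flat near the top of the scale.

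Of transducin, the rod-specific alpha subunit rose most. Gnat1 (gene at chr9:107674437-107679634, GRCm38.p6) read 11.79, 11.95 and 12.88 on the room air arrays of day 7, then 12.24, 13.00 and 13.18 at day 8, 14.50, 14.50 and 14.63 at day 10, and 14.70, 14.84 and 14.84 at day 12. The days 7 and 8 overlapped, and every array of days 10 and 12 stood above all of them. Gnat1 was thus 2.59 ± 0.30 higher at day 12 than at day 7 (SE, 3 arrays per group), or 6.01-fold with a 95% interval of 3.87 to 9.33 (limma adjusted p = 1.25e-05). In hyperoxia its values were 11.56, 12.02 and 12.86 at day 7, 12.60, 12.70 and 13.43 at day 8, 14.12, 14.38 and 14.49 at day 10, and 14.77, 14.79 and 14.83 at day 12. That is a rise of 2.65 ± 0.30, or 6.28-fold (4.04 to 9.75; limma adjusted p = 9.88e-06). The spread of Gnat1 shrank as it rose, from an SD of 0.59 at day 7 to 0.08 at day 12 in room air and from 0.66 to 0.03 in hyperoxia. On the deposited scale, before quantile normalization, it shrank less, from 0.585 to 0.146 in room air and from 0.647 to 0.105 in hyperoxia. Replicate 2 was the high array of day 7 in both conditions, and in both it had the lowest lens mean (9.92 and 7.56) and the highest pigment mean (10.56 and 9.95) of its group. With both means in the fit Gnat1 still rose, by 2.26 in room air and 2.07 in hyperoxia, and was called in both, and over 37 other settings its rise reached at most 2.93 and 3.01.

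The gamma and beta partners rose less. Gngt1 (chr6:3989082-3997436) was read by 3 tested probe sets. By 1451633_a_at it went from 12.98, 13.14 and 13.18 at day 7 to 13.70, 13.87 and 13.91 at day 12 in room air, with no overlap. The difference was 0.73 ± 0.12, or 1.66-fold (limma adjusted p = 0.000305), and 0.65 ± 0.12 in hyperoxia (adjusted p = 0.000902). By 1425167_a_at the rises of Gngt1 were 0.74 ± 0.17 and 0.91 ± 0.17 (limma adjusted p = 0.00602 and 0.00117). By 1425219_x_at, whose suffix marks oligonucleotides that may also bind other transcripts, they were 0.58 ± 0.17 and 0.67 ± 0.17 (adjusted p = 0.0279 and 0.0123). The last rests on low day 7 arrays: without room air day 7 replicate 1 (12.73) the rise was 0.37 (adjusted p = 0.164), and without hyperoxia day 7 replicate 3 (12.65) it was 0.45 (adjusted p = 0.0871). Those arrays had the highest lens means of their groups, 13.47 and 13.79. The same call in room air also ended without day 12 replicate 2 or 3 (adjusted p = 0.0773 and 0.0955).

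Gnb1 (chr4:155491300-155559269) rose by its bright probe set 1417432_a_at from 13.07, 13.07 and 13.48 to 13.83, 13.84 and 13.92 in room air. Every array of day 12 was above every array of day 7. The rise of Gnb1 was 0.66 ± 0.13 in room air, or 1.58-fold (1.3 to 1.91; limma adjusted p = 0.00239), and 0.73 ± 0.13 in hyperoxia, or 1.66-fold (adjusted p = 0.00104). It was called under all 37 other settings in both conditions.

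Among the phosphodiesterase subunits the catalytic alpha subunit rose strongly, and the beta and inhibitory gamma subunits moved little. Pde6a read 10.15, 10.40 and 10.57 at day 7 in room air, 9.95, 10.36 and 10.63 at day 8, 11.38, 11.38 and 11.93 at day 10, and 12.08, 12.32 and 12.48 at day 12. Days 7 and 8 overlapped, and day 12 stood clear of day 10. The rise of Pde6a was 1.92 ± 0.25, or 3.79-fold (2.63 to 5.46; limma adjusted p = 3.86e-05). In hyperoxia Pde6a went from 9.99, 10.13 and 10.22 at day 7 to 11.82, 12.13 and 12.23 at day 12. The hyperoxia rise was 1.95 ± 0.25, or 3.85-fold (adjusted p = 3.24e-05), and at day 8 replicate 1 stood alone at 11.04 beside 9.91 and 10.25.

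Pde6b (chr5:108388373-108431743) read 14.37, 14.37 and 14.38 at day 7 and 14.61, 14.65 and 14.71 at day 12 in room air. The day 12 arrays were all above the day 7 arrays, but the difference of 0.28 ± 0.10 did not pass (limma adjusted p = 0.0686), nor did 0.28 ± 0.10 in hyperoxia (adjusted p = 0.0634). Other settings called it in 4 of 37 cases in room air and in 5 of 37 in hyperoxia. The 95% intervals of Pde6b, 1.05 to 1.40-fold in room air and 1.06 to 1.40-fold in hyperoxia, lie below those of Gnat1, Pde6a and Cnga1. Pde6g (chr11:120447607-120453500) was read by a pair of probe sets. By 1450453_a_at it went from 14.18, 14.56 and 14.63 to 14.79, 14.87 and 14.89 in room air, a difference of 0.39 ± 0.12 (limma adjusted p = 0.0432). By 1425100_a_at the difference of Pde6g was 0.36 ± 0.12 and just missed (adjusted p = 0.0524). In hyperoxia they were 0.30 ± 0.12 and 0.29 ± 0.12, and neither passed (adjusted p = 0.131 and 0.12). The 1 call of Pde6g held under 19 of 36 other settings, and without room air day 7 replicate 1, the lowest array at 14.18, the difference was 0.25 (adjusted p = 0.22). It also ended without room air day 12 replicate 1, 2 or 3 (adjusted p = 0.114, 0.0708 and 0.1) and, at an adjusted p of 0.05 to 0.0534, without any of 8 arrays of other groups.

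The channel subunit Cnga1 (chr5:72603696-72642752) gave the lowest p of the 13 tested probe sets in room air. Its arrays read 12.06, 12.10 and 12.33 at day 7, 12.39, 12.42 and 12.93 at day 8, 13.10, 13.34 and 13.54 at day 10, and 13.50, 13.70 and 13.74 at day 12. Each day stood above the one before it, apart from an overlap of days 10 and 12. The rise of Cnga1 was 1.48 ± 0.15, or 2.79-fold (2.24 to 3.49; limma adjusted p = 2.64e-06). In hyperoxia Cnga1 went from 12.04, 12.25 and 12.40 to 13.43, 13.51 and 13.55. That rise was 1.26 ± 0.15, or 2.40-fold (1.92 to 3.00; adjusted p = 1.67e-05).

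Of the shut-off genes, Grk1 (chr8:13405081-13421951) encodes the kinase. It read 9.16, 9.25 and 9.66 at day 7 in room air and 10.19, 11.00 and 11.08 at day 12, without overlap. The difference of 1.40 ± 0.50, or 2.63-fold (1.28 to 5.42), did not pass (limma adjusted p = 0.0751). In hyperoxia the values of Grk1 were 8.95, 9.27 and 9.34 at day 7 and 10.31, 10.99 and 11.11 at day 12, and the rise of 1.61 ± 0.50, or 3.06-fold (1.49 to 6.30), passed (adjusted p = 0.0375). The spread of Grk1 comes in part from 1 array, room air day 8 replicate 1 at 7.64 beside 9.93 and 10.17, which also had the highest lens mean of its group, 13.05. Without that array the rise of Grk1 had an adjusted p of 0.0115 in room air and 0.00414 in hyperoxia. The hyperoxia call of Grk1 ended without day 7 replicate 1, 2 or 3 (adjusted p = 0.114, 0.0735 and 0.0736) or day 12 replicate 2 or 3 (adjusted p = 0.0978 and 0.118), with differences of 1.46 to 1.69.

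Sag (chr1:87798143-87845158), the arrestin, moved least of the called genes. Its arrays read 14.99, 15.02 and 15.29 at day 7 and 15.41, 15.41 and 15.41 at day 12 in room air, a difference of 0.31 ± 0.10 (limma adjusted p = 0.0450). In hyperoxia Sag read 14.98, 15.04 and 15.11 at day 7 and 15.07, 15.29 and 15.41 at day 12. These overlapped, and the difference of 0.21 ± 0.10 did not pass (adjusted p = 0.191). Sag was the brightest probe set of the whole array on 5 of 24 arrays, among them all 3 of room air day 12. Quantile normalization gives the brightest probe set of every array 1 common value, so the SD of 0.00 there is set by the method. On the deposited scale those 3 arrays averaged 15.50 ± 0.08 (SD) and the day 7 arrays 15.16 ± 0.14, and the difference of 0.34 did not pass (adjusted p = 0.12). The call of Sag held under 17 of 37 other settings. It ended without room air day 7 replicate 1 or 3 (0.27 and 0.26, adjusted p = 0.145 and 0.189), without any of the 3 day 12 arrays (adjusted p = 0.0948 to 0.1) and, at an adjusted p of 0.0502 to 0.0564, without any of 12 arrays of other groups.

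**Figure D2:**
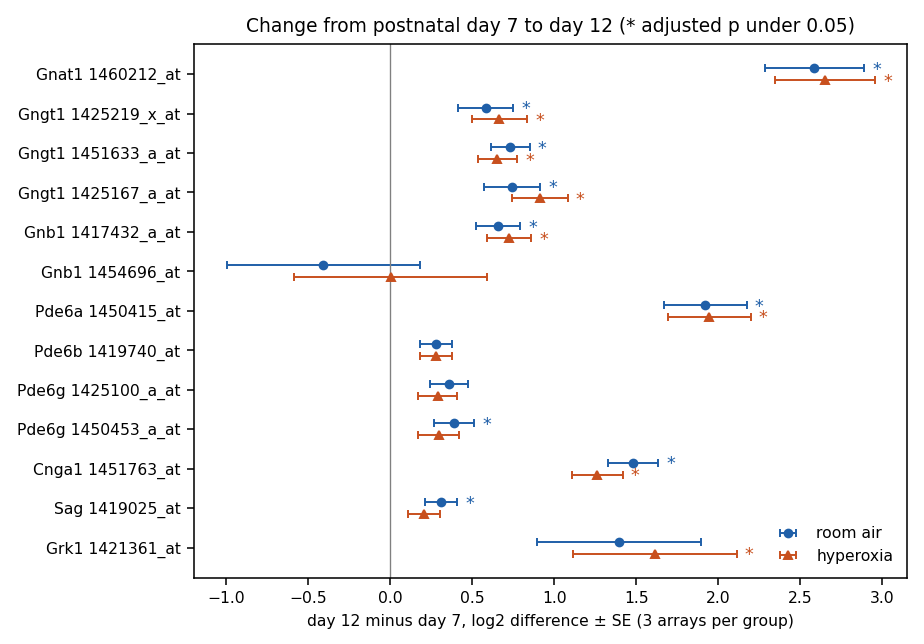
Difference between day 12 and day 7 for the 13 tested probe sets, in log2 units with the standard error, in room air (circles) and hyperoxia (triangles). A star marks an adjusted p under 0.05. Gnat1, Pde6a, Cnga1 and Grk1 lie at 1.26 or more, and all others lie under 1.

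The smallest positive differences in room air were on the brightest probe sets. The probe sets of Sag, Pde6g and Pde6b, with differences of 0.39 or less, not all of which passed, had mean signals at percentile 99.6 or above of the array. Pde6a, at percentile 77.4, rose by 1.92, and Grk1, at 61.1, differed by 1.40 without passing. Gnat1 and Cnga1, at percentiles 97.7 and 95.1 by their mean over all arrays, rose by 2.59 and 1.48. In room air they averaged 12.21 and 12.16 at day 7, and 14.79 and 13.64 at day 12. At day 7 Pde6b already averaged 14.38 there, the pair of Pde6g 14.73 and 14.46, and Sag 15.10. Compression of signal near the top of the scanner's range was not tested.

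For Gnat1, Pde6a and Cnga1 the largest step in both conditions lay between day 8 and day 10, which are 2 days apart where days 7 and 8 are 1 day apart. Per day, Cnga1 in both conditions and Gnat1 in hyperoxia changed more from day 7 to day 8. In room air 3 of 13 probe sets, those of Gnat1, Pde6a and Cnga1, passed between these days, against 0.783% of all probe sets called higher. Gnat1 was 1.74 ± 0.30 higher, or 3.33-fold (limma adjusted p = 0.00691), Pde6a 1.25 ± 0.25, or 2.38-fold (adjusted p = 0.0183), and Cnga1 0.74 ± 0.15, or 1.67-fold (adjusted p = 0.0203). In hyperoxia 0 of 13 passed, against 0.164% of all, with 6 at an unadjusted p under 0.05, beside 1642 of all. There Gnat1 was 1.42 ± 0.30 higher (limma adjusted p = 0.0533), Pde6a 1.01 ± 0.25 (adjusted p = 0.103) and Cnga1 0.55 ± 0.15 (adjusted p = 0.163). The day 10 arrays of all of these stood above the day 8 arrays in both conditions. For Pde6a in hyperoxia this was nearly a tie, with the lowest day 10 array at 11.0461 and the highest day 8 array at 11.0449.

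The room air count for this step moved with single arrays. Without day 8 replicate 3 it was 0 (Gnat1 1.45, adjusted p = 0.0668; Pde6a 1.07, adjusted p = 0.128; Cnga1 0.66, adjusted p = 0.131). Without day 8 replicate 1 it was 1, as Pde6a (adjusted p = 0.0569) and Cnga1 (adjusted p = 0.1) dropped out, and the same was true without day 10 replicate 3 (adjusted p = 0.0909 and 0.0984). Without day 10 replicate 2 Cnga1 dropped out (adjusted p = 0.0809). The hyperoxia count was 2 without day 8 replicate 1, and 1 without day 7 replicate 1 or 2 or without room air day 7 replicate 2 or day 8 replicate 3.

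The steps on either side passed nowhere. Between days 7 and 8 limma called 0 of 13 in room air and 0 of 13 in hyperoxia, and 0% of all probe sets were called. At an unadjusted p under 0.05 there were 2 in each, beside 789 of all probe sets in room air and 639 in hyperoxia. Gnat1 differed by 0.60 ± 0.30 in room air and 0.76 ± 0.30 in hyperoxia, and Cnga1 by 0.42 ± 0.15 and 0.30 ± 0.15. Between days 10 and 12 limma called 0 of 13 in each condition, against 0.0189% of all probe sets in room air and 0.221% in hyperoxia. At an unadjusted p under 0.05 there were 2 in each, beside 1057 of all probe sets in room air and 1604 in hyperoxia. Here Pde6a had the largest positive difference, 0.73 ± 0.25 in room air and 0.65 ± 0.25 in hyperoxia (limma adjusted p = 0.542 and 0.347). Consecutive steps share the arrays of the day between them.

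As a share of the change from day 7 to day 12, Gnat1 had reached 90.3% by day 10 in room air and 82.5% in hyperoxia. Cnga1 had reached 78.4% and 66.9%, Gnb1 66.6% and 66.3%, and Pde6a 61.9% and 66.5%. Leaving out each replicate number in turn moved the share of Gnat1 between 88.7% and 92.9% in room air and that of Pde6a between 52.0% and 68.8%. In hyperoxia they ran from 76.9% to 86.7% and from 58.0% to 72.1%. At day 10 Gnat1 had thus covered more of its change than Pde6a had, a comparison given without a test. Gnat1 then averaged 14.54 in room air and 14.33 in hyperoxia, beside 11.56 and 11.41 for Pde6a. Whether compression of bright signal affected these shares was not tested.

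No member of the cascade passed the test of hyperoxia against room air at any age. At day 7, after 12 hours, limma called 0 of 13 member probe sets, against 0.0631% of all, and Gnat1 differed by -0.06 ± 0.30. At day 8, after 24 hours, it called 0 of 13, against 0.0821% of all. At day 10, after 72 hours, it called 0 of 13, against 0.0631%, and at day 12, after 120 hours, 0 of 13, against 0.0126%. At an unadjusted p under 0.05 the member counts were 0, 1, 0 and 0, beside 503, 780, 1729 and 1383 of all probe sets. The counts at the adjusted p stayed at 0 under all 37 other settings. With so few of all probe sets called, a count of 0 among 13 says little about the members themselves.

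The intervals rest on a spread pooled over all days. At day 12 the 95% interval of hyperoxia over room air was 0.646 to 1.56-fold for Gnat1, 0.589 to 1.22-fold for Pde6a, 0.723 to 1.13-fold for Cnga1 and 0.778 to 1.04-fold for Sag. For Pde6b it was 0.860 to 1.14-fold and for Grk1 0.503 to 2.13-fold. For Gnat1 the day 12 arrays were closer than this, with SDs of 0.08 and 0.03 and all 6 arrays between 14.70 and 14.84. On the deposited scale, before quantile normalization, these SDs were larger, 0.146 and 0.105. The wide interval reflects the larger spread of days 7 and 8. The room air values of Sag at day 12 are those fixed by the normalization. At day 10 all 3 hyperoxia arrays of Gnat1 (14.12, 14.38 and 14.49) were below all 3 room air arrays (14.50, 14.50 and 14.63), yet the difference of -0.21 ± 0.30 was within the error of the fit (adjusted p = 0.825). At day 8 all 3 hyperoxia arrays of Pde6g by 1450453_a_at were above those in room air, by 0.17 ± 0.12 (adjusted p = 0.964).

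**Figure D3:**
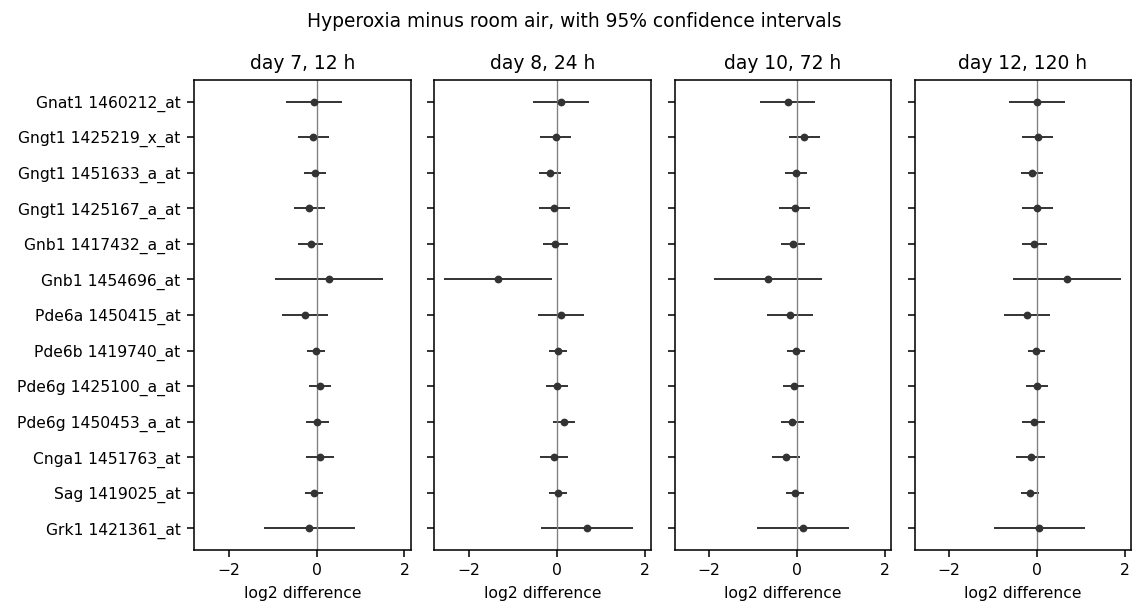
Hyperoxia minus room air for the 13 tested probe sets at each age, in log2 units, with 95% confidence intervals from the limma fit. Titles give the day and the hours of hyperoxia. Apart from Gnb1 1454696_at at day 8, every interval includes 0, and those of Grk1 and Gnb1 1454696_at are the widest.

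Averaged over the 4 days, 0 of 13 passed, against 0.492% of all probe sets, and 0 had an unadjusted p under 0.05, beside 1415 of all. The median of the members was -0.06, beside 0.00 for all probe sets, and 9 of 13 were negative. Gnat1 was at 0.972-fold (0.780 to 1.21), Pde6a at 0.907-fold (0.756 to 1.09), Cnga1 at 0.937-fold (0.838 to 1.05) and Pde6b at 0.995-fold (0.927 to 1.07). The change from day 7 to day 12 in hyperoxia minus that in room air passed for 0 of 13, against 0% of all, with 0 at an unadjusted p under 0.05, beside 983 of all. For Gnat1 it was 0.06 ± 0.43, for Pde6a 0.02 ± 0.36 and for Cnga1 -0.22 ± 0.22. An F test of any difference of the hyperoxia effect among the days called 0 of 13, against 0% of all, with 0 at an unadjusted p under 0.05 beside 1039 of all.

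Probe sets of the same gene did not always tell the same story. The second tested probe set of Gnb1, 1454696_at, scattered from 9.57 to 13.39 over the 24 arrays and had a correlation of -0.10 with 1417432_a_at. Its SD within groups was 0.79, beside 0.16 for 1417432_a_at. It changed by -0.41 ± 0.59 from day 7 to day 12 in room air and by 0.00 ± 0.59 in hyperoxia. At day 8 it read 9.57, 10.67 and 10.85 in hyperoxia and 11.23, 11.59 and 12.29 in room air, a difference of -1.33 ± 0.59 at an unadjusted p of 0.0348 (limma adjusted p = 0.964), while 1417432_a_at of Gnb1 differed by -0.03 ± 0.13. That unadjusted result was the 1 among the members at day 8. The high value of 13.39 was on room air day 10 replicate 1, beside 10.67 and 10.92. The 3 probe sets of Gngt1 correlated at 0.84 to 0.95 over the arrays and the pair of Pde6g at 0.75.

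**Figure D4:**
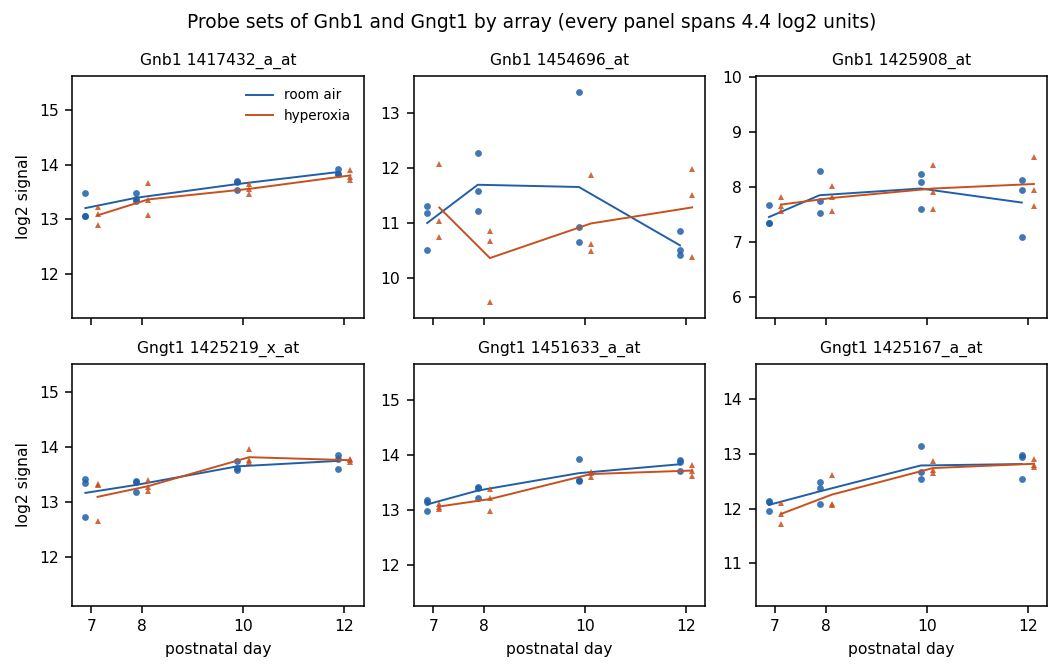
Log2 signal on each of the 24 arrays for 3 probe sets of Gnb1 (top) and 3 of Gngt1 (bottom) against postnatal day, in room air (circles) and hyperoxia (triangles), with lines through the group means. Gnb1 1417432_a_at climbs, 1454696_at scatters from 9.57 to 13.39, and 1425908_at stays near the dim end. The Gngt1 probe sets climb together.

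The dim probe sets, which were left out of the fit, were fitted once without the filter. By 1425168_at Gngt1 was 0.80 ± 0.31 higher at day 12 in room air (limma adjusted p = 0.134) and 0.68 ± 0.31 in hyperoxia (adjusted p = 0.224). By 1425908_at Gnb1 differed by 0.26 ± 0.29 and 0.37 ± 0.29 (adjusted p = 0.747 and 0.561). Gngt1 1425168_at lay at the floor on 3 arrays and Gnb1 1425908_at on 1, which can understate these differences.

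Some members also moved together from array to array within groups. After the group means were taken away, Gnat1 and Pde6a correlated at 0.58 over 24 arrays, Gnat1 and Cnga1 at 0.62, and Pde6a and Cnga1 at 0.63. Grk1 correlated at 0.44 with Pde6a and at 0.09 with Gnat1. These points share the array, its dissection and its scaling. Over all arrays, group means included, each member was correlated with the mean standardized profile of the other rod members. Gnat1 had 0.97, Cnga1 0.96 and Pde6a 0.94. The probe sets of Gngt1 had 0.82 to 0.88, Pde6b had 0.80, Sag 0.78, Pde6g 0.76 and 0.75, and Grk1 0.70. Gnb1 had 0.87 by 1417432_a_at and -0.11 by 1454696_at.

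The genes whose course was most like the cascade were sought among 9257 genes by the correlation with the mean standardized profile of the 8 members other than Gnb1 over the 24 arrays. In all 116 genes reached 0.9. The nearest was Slc24a1, the rod exchanger that removes calcium from the outer segment (r = 0.98), which was 2.65 ± 0.27 higher at day 12 in room air (limma adjusted p = 2.29e-06). Next came Alpl, a tissue-nonspecific alkaline phosphatase, Aipl1, a chaperone that assembles the phosphodiesterase, Rdh12, a retinol dehydrogenase of photoreceptors, Reep6, a rod membrane protein, and Opn1mw, the cone pigment for middle wavelengths (r = 0.97 for each). Qpct, Drd4, Abca8a and Gng13, a gamma subunit of ON bipolar cells, completed the 10 at 0.97. Opn1mw rose by 3.54 ± 0.28, Drd4, a dopamine receptor, by 3.14 ± 0.30 and Gng13 by 2.33 ± 0.16, so genes of cones and bipolar cells are among the 10. The measure shows a shared time course and no more.

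Most probe sets of the other rod phototransduction genes rose with age too. Of their 16 tested probe sets, for 13 of 17 listed genes, 10 were higher at day 12 in room air and 0 lower, with a median of 0.60, and 9 were higher and 0 lower in hyperoxia, with a median of 0.64. Guca1b, a calcium sensor that switches on guanylate cyclase, rose from 9.95 to 14.03 in room air, by 4.08 ± 0.31 (limma adjusted p = 9.48e-08), and by 3.71 ± 0.31 in hyperoxia. Guca1a, its sister sensor, rose by 1.15 ± 0.11 and 0.70 ± 0.11, and Aipl1 by 1.22 ± 0.14 and 1.14 ± 0.14. Averaged over the days, 0 of the 16 passed for hyperoxia, with 1 at an unadjusted p under 0.05, and the median was 0.01.

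Cone counterparts of the cascade had 6 of 11 probe sets higher and 1 lower in room air, with a median of 0.73, and 3 higher and 1 lower in hyperoxia, with a median of 0.45. Gnat2, the cone transducin alpha subunit, rose by 0.75 ± 0.10 in room air and 0.57 ± 0.10 in hyperoxia (limma adjusted p = 4.54e-05 and 0.000728). Pde6c, the cone catalytic subunit, rose by 2.04 ± 0.44 in room air (adjusted p = 0.00374) and was 1.03 ± 0.44 higher in hyperoxia without passing (adjusted p = 0.141). Arr3, the cone arrestin, rose by 1.56 ± 0.29 in room air (adjusted p = 0.00102) and stood at 0.78 ± 0.29 in hyperoxia (adjusted p = 0.0827). The difference between the conditions in this change, tested above over all probe sets, gave 0 calls, so these gaps are not shown. In the outer segment and visual cycle list 7 of 13 were higher in room air and 9 in hyperoxia, with 0 lower in both and medians of 0.86 and 0.82, led in room air by Prph2, a disc rim protein, at 1.43 ± 0.27 (adjusted p = 0.00139).

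The transcription factors of photoreceptors moved in both directions. Of 14 probe sets, 2 were higher and 3 lower at day 12 in room air, with a median of -0.10, and 3 were higher and 2 lower in hyperoxia, with a median of 0.01. In room air Nrl differed by 0.03 ± 0.08 (limma adjusted p = 0.885) and Crx by -0.10 ± 0.13 (adjusted p = 0.669). There Esrrb, a nuclear receptor of rods, rose by 2.35 ± 0.16 (adjusted p = 2.47e-08). Prdm1, which holds young photoreceptors from becoming bipolar cells, fell by 1.34 ± 0.14 (adjusted p = 2.64e-06), Otx2 by 1.06 ± 0.19 (adjusted p = 0.000617) and Neurod1 by 0.46 ± 0.13 (adjusted p = 0.0253). In hyperoxia Esrrb rose by 2.24, Prdm1 fell by 1.40 and Otx2 by 1.03, and Neurod1 differed by -0.22 without passing (adjusted p = 0.326). Nrl, at percentile 99.9 of the array, was in the same bright range as Sag. Crx, at percentile 98.9, read lower than Sag on every array, at 13.64 to 14.24 beside 14.98 to 15.41.

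Other G protein beta and gamma subunits were mixed, with 3 of 13 probe sets higher and 1 lower in room air, a median of -0.02, and 2 higher and 1 lower in hyperoxia, a median of 0.13. Gng13 rose by 2.33 ± 0.16 and Gnb2 fell by 0.63 ± 0.11 (limma adjusted p = 0.000841). Averaged over the days, Gng11, another gamma subunit, was the 1 of these 13 called for hyperoxia, and it fell by 0.49 ± 0.07 (adjusted p = 0.00142).

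Of 15 tested probe sets of pigment epithelium markers 2, both of 1 gene, were higher at day 12 in room air, where 7.14% of all were. In hyperoxia 5, of 3 genes, were higher, against 5.95% of all, and 0 were lower in either. Ttr, the gene called in room air, encodes the thyroid hormone carrier made by this layer and rose by 1.32 ± 0.41 and 2.51 ± 0.41 (limma adjusted p = 0.0411 and 0.000368). The mean of the list went from 9.14 to 10.56 at day 7 to 10.24 to 10.93 at day 12 in room air. In hyperoxia it went from 8.99 to 9.95 to 10.12 to 11.27. With these means and those of lens in the fit, Gnat1, Pde6a, Cnga1, Gnb1 and Gngt1 1451633_a_at were still called in both conditions, with adjusted p of at most 0.0439 in hyperoxia. Calls that ended there were those of Sag, Pde6g and Gngt1 1425219_x_at in room air (adjusted p = 0.182, 0.179 and 0.122), and of Grk1, Gngt1 1425167_a_at and Gngt1 1425219_x_at in hyperoxia (adjusted p = 0.201, 0.0619 and 0.213). Of 13 lens probe sets 0 were called in either condition, at limma's adjusted p or at an unadjusted p under 0.05.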

How the data were processed

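Retinal RNA was measured on 24 oligonucleotide arrays, 1 per sample. The authors deposited 1 linear intensity per probe set and array. Its software is not given in the sources used here, nor its scaling, but the mean after trimming 2% at each end was 1500.35 to 1500.4 on every array, and array medians ranged from 570.15 to 679.65. Scanner files were not analysed here.

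Intensities were taken to log2, quantile normalized because the medians spanned 0.253, and raised to a floor of 135.6 (the 20th percentile). Removing 64 control probe sets and those with a mean under the 30th percentile left 15838 probe sets, in which 0.34% of values were at the floor. All contrasts came from a single model of the 8 groups in limma 3.58.1 under R 4.3.3, which left 16 residual degrees of freedom. A call is a Benjamini-Hochberg adjusted p under 0.05 over all probe sets. The fit was also run on simulated data with independent noise for each probe set. These lacked the shared lens, pigment and array variation seen here, and no conclusion is drawn from them. Symbols came from the platform annotation: 20380 probe sets had 1, 691 several and 1555 none, and 20364 of the first were found in the RefSeq gene table of GRCm38.p6. All member probe sets were named, and from each gene list up to 4 genes called in room air between days 7 and 12, those with the largest differences, as well as Nrl and Crx. The 10 genes most like the members were taken by correlation. Members and lists were chosen with earlier results of these data known. Figures were drawn with matplotlib 3.10.9.

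Alternatives covered scaling, floor, filter, replicate block, prior, array weights, covariates, 1 probe set per gene, the groups in the fit and leaving out each array. Same-numbered arrays deviated together in 5 of 12 pairs (r over 0.1), among them every pair of day 12 (r = 0.44, 0.23 and 0.39). Numbers were not taken to pair samples.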

Additional observations from a re-analysis of the deposited data

How the results depend on the processing

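Across 735 recomputed values of the 20 member calls, 669 kept their side of the threshold, 66 lost it and 0 changed sign. The room air count between days 7 and 12 ran from 6 to 11 around 9, and from 6 to 10 with 1 array left out. In hyperoxia it was 8, 5 with the lens and pigment covariates, and 6 to 9 with 1 array left out. Between days 8 and 10 in room air the count of 3 became 5 with arrays centred on the median, 1 without the 2 arrays farthest from their groups (room air day 8 replicate 1 and hyperoxia day 12 replicate 2, an alternative chosen after seeing the data), 0 with only the compared groups in the fit, and 0 to 3 with 1 array left out. In hyperoxia the same step went from 0 to 4 with array weights, to 1 with the deposited scaling, the floor at the 30th percentile, the filter at the 50th percentile, the trend and robust prior or 1 probe set per gene, and to 0 to 2 with 1 array left out. With the replicate number as a block it was 1, and the block changed no other count of members. Of the same-numbered pairs, 5 of 12 deviated together with r over 0.1 (range -0.31 to 0.44), among them every pair of day 12. All other member counts were 0 under every setting. The cause of these shifts was not tested.

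Centring on the median moved the split of all calls between days 7 and 12 from 1131 higher of 1955 to 1294 of 1866 in room air, and from 942 of 1993 to 707 of 1902 in hyperoxia. For the step from day 8 to day 10 in room air it went from 124 of 167 to 314 of 356. It also moved the median over all probe sets for hyperoxia minus room air in the change from day 7 to day 12 to -0.11. The number of arrays, 3 per group, limits the precision of every value.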

Other observations

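Markers of other retinal cell types were counted over the same days, in which 7.14% of all probe sets were higher in room air and 5.95% in hyperoxia. Of 13 probe sets of progenitor and cell cycle markers, 10 fell between days 7 and 12 in room air and 10 in hyperoxia, with medians of -1.06 and -1.30 beside -0.03 for all probe sets in each. Cdk1, the mitotic kinase, fell by 1.39 ± 0.28 in room air (limma adjusted p = 0.00193), Ccnd1, a cyclin of the retinal progenitor, by 1.38 ± 0.17, and Hes5, a Notch target, by 1.36 ± 0.20. Müller glia markers had 6 of 18 higher and 1 lower in room air, and 8 higher and 0 lower in hyperoxia. Aqp4, the water channel of Müller cells, rose by 2.62 ± 0.20 (adjusted p = 9.2e-08) and Glul, which recycles glutamate, by 1.83 ± 0.21 (adjusted p = 8.7e-06).

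Bipolar markers had 6 of 14 higher and 2 lower in room air, and 6 higher and 3 lower in hyperoxia, with medians of -0.09 and 0.22. In room air the higher probe sets were of 3 genes and the lower ones of 2. Cabp5, a calcium-binding protein, rose there by 1.59 ± 0.23 (limma adjusted p = 9.85e-05) and Pcp2 by 1.36 ± 0.19 (adjusted p = 6e-05). Otx2, also on this list, fell there by 1.06 ± 0.19 (adjusted p = 0.000617). Ganglion and amacrine markers had 5 of 21 higher and 0 lower in each condition, with Thy1 at 0.85 ± 0.14 and Calb2 at 0.77 ± 0.14 (adjusted p = 0.000366 and 0.000949). Of the red blood cell list 1 probe set was tested, that of Alas2, which starts heme synthesis in red cell precursors, and it is named for that reason after its values were seen. It was called in neither change with age (0.24 ± 0.39 in room air and -0.51 ± 0.39 in hyperoxia). Averaged over the days Alas2 fell by 1.08 ± 0.19 in hyperoxia against room air (limma adjusted p = 0.00697).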
